A study of Danio rerio with 20 samples.

Results

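Insertion-bearing alleles were described at the target sites of 6 Cas9 guides in zebrafish melanomas. They were all rows of the 6 allele tables, other than rows with the substitution prefix, whose label held at least 1 insertion, alone or with further events. This rule gave 320 alleles among 820 insertion or deletion (indel) alleles and 5533 rows in all. They carried 60155 of 2228687 indel reads and of 5900851 classified reads, which are all reads but those counted as Other.

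The samples were genomic DNA of tumours raised by TEAZ, a method that electroporates transgenes into adult skin. Cells positive for tdTomato and Hoechst were sorted before lysis, and each guide site was read by amplicon sequencing, per the labels' protocols. Each of the 20 samples was 1 tumour-bearing fish at 1 guide. The labels name 2 knockouts, Acaa2 and TLR4. Equal fish numbers within a knockout were taken for 1 animal, though no label says so. On that reading, both guides of acaa2 were read in each of 4 Acaa2 knockout fish. Likewise, among 4 TLR4 knockout fish, the second guides (tlr4ba-sg2, tlr4bb-sg2) were read in all and the first guides (tlr4ba-sg1, tlr4bb-sg1) in fish 3 and 4 only. The labels give no age, strain or Cas9 source, and no sample of unedited tissue was analysed here. The melanoma label could not be set against marker genes, because the tables hold alleles only.

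Cas9 cuts both DNA strands, and end joining that is not exact leaves a short deletion or insertion. Insertions of a single base are a well-known outcome of Cas9 cutting, since the enzyme can leave staggered ends that are filled in before they are joined. The product of acaa2 is a thiolase that works in the last step of mitochondrial beta-oxidation of fatty acids, and tlr4ba and tlr4bb belong to the family of Toll-like receptor 4, a receptor of innate immunity. In the labels, -2:1I means a 1-bp insertion (I) at position -2, and a second event follows after a comma, with D for a deletion. Positions skip 0, so that the boundary between -1 and 1 is called position 0 here. The labels give the length of an insertion and not its bases, so alleles with the same label may differ in sequence.

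Depth ran from 28353 to 729540 reads per sample, and reads counted as Other made up 0.059% to 3.65% of a sample. No 2 samples of a guide had allele counts equal within counting error (chi-square per degree of freedom of 34.9 or more over the 26 pairs). The chi-square takes reads as independent, so it cannot exclude that 2 samples were amplified from the same DNA. Intervals are 95% Wilson intervals, and 3 reads is the upper limit set on a count of 0. Both cover counting error only, because the labels describe no molecular identifiers and 1 molecule can give many PCR reads.

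The 320 alleles were many in kind and few in weight. Of them, 222 were seen as 1 read in all, 75 had 2 to 9 reads and 23 had 10 or more. Only 3 reached 1% of the classified reads of a fish, 7 more reached 0.1%, and 302 stayed under 0.01% in every fish. The 2 leading alleles, -2:1I at tlr4bb-sg2 and -1:1I at tlr4ba-sg2, held 51045 reads, or 84.9% of all insertion-bearing reads. The 6 leading alleles held 96.9%. Each of these 6 was a lone 1-bp insertion.

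Pure insertions, with no deletion in the same allele, were 58 of the 320 alleles and held 59303 reads, or 98.6% of insertion-bearing reads. The other 262 alleles joined an insertion to at least 1 deletion and held 852 reads. Pure alleles had a median of 2 reads and joined alleles a median of 1 read, with 20 of 58 and 202 of 262 seen only once. The label opened with the insertion in 161 joined alleles and with the deletion in 101.

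By length, 1 bp was the rule among pure alleles. The joined alleles with the most reads inserted 2, 4 and 8 bp, with 177, 135 and 71 reads. Of the 58 pure alleles, 50 inserted 1 bp, and the 8 longer ones held 14 reads together. The next counts pool both kinds and are of events, since 8 alleles held 2 or more insertions. There were 233 insertions of 1 bp on 59631 reads, 61 of 2 bp on 270 reads and 10 of 3 bp on 27 reads. There were 11 of 4 bp on 146 reads and 5 of 5 bp on 10 reads. Of the longer events, those of 8 bp were on 72 reads, nearly all from 1 allele of tlr4ba-sg2 fish 1. The longest were 15, 18 and 20 bp, on 1, 2 and 1 reads, and all 3 were at the acaa2 guides.

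The net change in length was a gain in 85 alleles with 59601 reads, 0 in 91 alleles with 134 reads, and a loss in 144 alleles with 420 reads. Counted as alleles over all sites, net losses thus outnumbered net gains, while the pooled reads were nearly all gains. Of the alleles, 222 were seen as 1 read. Of the 60155 pooled reads, tlr4bb-sg2 fish 2 held 33139 and tlr4ba-sg2 fish 1 held 17207. Single samples could differ, as in tlr4ba-sg2 fish 3, where 201 of 225 reads had a net loss. Most alleles were read in 1 fish, which holds by construction for the 222 seen as 1 read. Of the 98 alleles with at least 2 reads, 57 were read in 1 fish only. Over all 320 alleles, 36 were in 2 fish, 3 in 3 fish and 2 in 4 fish. A low read count alone can leave an allele in 1 fish, and tlr4ba-sg1 and tlr4bb-sg1 were read in 2 fish only. The share of all 820 indel alleles that was read in 1 fish is not given here. Whether insertion-bearing alleles were more confined to 1 fish than other indel alleles was not tested.

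The share of classified reads on insertion-bearing alleles varied widely between fish, and at each of the 4 guides read in 4 fish its SD exceeded its mean. At acaa2-sg1 the mean was 0.614% ± 0.965 (SD, n = 4), from 0.016% (33 reads), 0.179% (204 reads), 2.06% (4564 reads) and 0.206% (505 reads) in fish 1 to 4. Fish 3 stood apart, since even the lower bound of its interval, 1.998%, lay far above the other 3 fish. For acaa2-sg2 the mean was 0.070% ± 0.077 (SD, n = 4), from 0.0021% (6 reads), 0.0031% (9 reads), 0.130% (949 reads) and 0.143% (741 reads) in fish 1 to 4. Fish 3 and 4 had overlapping intervals at this site (0.122 to 0.139 and 0.133 to 0.153), and fish 1 and 2 held almost no insertions.

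For tlr4ba-sg1 the mean was 0.143% ± 0.104 (SD, n = 2), from 262 reads or 0.069% in fish 3 and 979 or 0.216% in fish 4. For tlr4ba-sg2 the mean was 6.20% ± 12.2 (SD, n = 4). Fish 1 held 17207 such reads there, or 24.6% (interval 24.2 to 24.9), while fish 2 held 2 or 0.0071%, fish 3 held 225 or 0.047%, and fish 4 held 1255 or 0.205%. The mean of tlr4ba-sg2 was thus set by fish 1, and the median of its 4 fish was 0.126%.

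For tlr4bb-sg1 the mean was 0.0055% ± 6.8e-05 (SD, n = 2), from 13 reads or 0.0056% in fish 3 and 11 or 0.0055% in fish 4. For tlr4bb-sg2 the mean was 8.28% ± 16.5 (SD, n = 4). Fish 2 held 33139 such reads there, or 33.1% (interval 32.8 to 33.4), while fish 1 held 26 or 0.025%, fish 3 held 12 or 0.0037%, and fish 4 held 13 or 0.0042%. Fish 2 alone lay above 0.1%, and the median of the 4 fish was 0.014%. Over the 20 samples, 3 were above 1% and 11 were under 0.1%.

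Set against indel reads only, the order of the fish changed at both acaa2 guides and at tlr4bb-sg2. At acaa2-sg1 insertion-bearing reads were 20.5% of 161 indel reads in fish 1 (interval 15.0 to 27.4), and 0.217%, 5.19% and 0.482% in the next 3 fish (mean 6.60% ± 9.54, SD, n = 4). For acaa2-sg2 they were 0.156%, 0.0035%, 0.146% and 0.365% in fish 1 to 4 (mean 0.167% ± 0.149, SD, n = 4). The share of acaa2-sg2 fish 1 rested on 6 insertion-bearing reads (interval 0.071 to 0.340). The highest share at acaa2-sg1 thus came from the fish with the fewest indel reads, and without that sample the difference between the guides was 1.79 points.

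At tlr4ba-sg1 insertion-bearing reads were 0.186% of the indel reads in fish 3 and 0.278% in fish 4. For tlr4ba-sg2 the mean was 16.01% ± 18.4 (SD, n = 4), with high shares in fish 1 (35.5%, interval 35.1 to 35.9) and fish 4 (27.9%, interval 26.6 to 29.2) and low ones in fish 2 (0.131%) and fish 3 (0.524%). Fish 4 had 4504 indel reads among 611634 classified reads, against 48466 among 70080 in fish 1. These 2 fish thus both had a large part of insertions among their indels and differed in the share of reads with an indel.

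At tlr4bb-sg1 the share was 12.7% of 102 indel reads in fish 3 (interval 7.60 to 20.6) and 12.1% of 91 indel reads in fish 4 (interval 6.89 to 20.4). Of the 13 insertion-bearing reads of fish 3, 10 were of joined alleles with a net change of 0, and so were all 11 of fish 4. For tlr4bb-sg2 the mean was 10.4% ± 20.8 (SD, n = 4), with 41.6% in fish 2 (interval 41.2 to 41.9) against 0.034%, 0.053% and 0.024% in fish 1, 3 and 4. Fish 2 was the only one of these 4 in which insertions made up a visible part of the indels.

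The guides were compared on 3 measures in 5 ways, taking the difference of means over samples with an exact permutation test, two-sided. The test took samples as independent and did not pair same-numbered fish. Each comparison had some fish numbers in both groups, and for the tlr4ba guides and the tlr4bb guides these were fish 3 and 4 only. None of the 15 comparisons passed an unadjusted 0.05, and after Benjamini-Hochberg adjustment the lowest value was 0.833. The lowest p was 0.057, for insertion-bearing reads among indel reads at acaa2-sg1 against acaa2-sg2 (difference 6.43 points, 4 against 4 samples, exact permutation). In that comparison acaa2-sg1 was higher in 4 of 4 fish, by 20.3, 0.213, 5.04 and 0.117 points in fish 1 to 4. Within fish 1 and 2 the mean difference was 10.3 points, against 2.58 points within fish 3 and 4. With only insertions at positions -3 to 3 it was 1.28 points (exact permutation p = 0.371). Without alleles under 0.1% of reads it was 1.71 points (exact permutation p = 0.171, 3 against 4 samples). Paired by fish number, an exact test over the signs of the 4 differences gave p = 0.125, the lowest it can give. As a share of classified reads the difference was 0.545 points (exact permutation p = 0.143), again with acaa2-sg1 higher in 4 of 4 fish, and 0.064 points without acaa2-sg1 fish 3.

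The smallest p the exact test can give was 0.133 for 2 against 4 samples and 0.333 for 2 against 2, so the tlr4ba guides, the tlr4bb guides and the first guides of both genes could not pass, whatever the measure. The tlr4ba guides differed by -6.06 points of classified reads (exact permutation p = 0.933) and by -15.8 points of indel reads (exact permutation p = 0.400). The first of these values rested on 1 sample. Without tlr4ba-sg2 fish 1 it was 0.056 points, and within fish 3 and 4, the only fish read with both guides, it was 0.016 points. The value for indel reads was -14.0 points within fish 3 and 4.

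The tlr4bb guides differed by -8.27 points of classified reads and by 2.0 points of indel reads (each exact permutation p = 0.800). The first value was -0.0054 points without tlr4bb-sg2 fish 2 and 0.0015 points within fish 3 and 4. The second was 12.4 points without tlr4bb-sg2 fish 2 and also within fish 3 and 4, and it turned to -1.46, -1.45 and -1.46 points without tlr4bb-sg2 fish 1, 3 or 4.

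The second guides of tlr4ba and tlr4bb differed by -2.08 points of classified reads (exact permutation p = 0.971) and by 5.59 points of indel reads (exact permutation p = 0.743). Here the fish went opposite ways, with tlr4ba-sg2 higher by 24.5 points of classified reads in fish 1 and lower in fish 2, by -33.1 points. In fish 3 and 4 tlr4ba-sg2 was higher by 0.043 and 0.201 points. The first value was 6.19 points without tlr4bb-sg2 fish 2, and the second was -0.910 points without tlr4ba-sg2 fish 1. Within fish 1 and 2 the differences were -4.28 and -2.98 points, and within fish 3 and 4 they were 0.122 and 14.2 points. The first guides differed by 0.137 points of classified reads and -12.2 points of indel reads (each exact permutation p = 0.333), the latter against tlr4bb-sg1 samples of only 102 and 91 indel reads.

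The insertion-bearing allele with the most weight at any site was -2:1I at tlr4bb-sg2. It had 2 reads in fish 1, 32774 reads in fish 2, and 0 reads in fish 3 and in fish 4. In fish 2 this was 32.7% of classified reads (interval 32.4 to 33.0) and 41.1% of indel reads, and the 0 reads of fish 3 and 4 allow up to 0.00093% and 0.00098%. The 1-bp deletion with the same start, -2:1D, had 0, 1, 15016 and 0 reads in fish 1 to 4. At this start, then, fish 2 was read with the insertion and fish 3 with the deletion, with at most 1 read of the other kind in each. Fish 2 did carry a 1-bp deletion at another start, 1:1D, with 43205 reads, more than its reads of -2:1I.

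Besides the insertion -2:1I, tlr4bb-sg2 had 1:1I with 17 reads in fish 1 and 126 reads in fish 2 (0.126%, interval 0.106 to 0.150). In fish 3 and 4 this second insertion had 0 reads. The allele 2:1I had 1 read in fish 1 and 13 in fish 2. In fish 3 the most abundant insertion-bearing allele was 4:1I with 5 reads, and in fish 4 all 13 alleles were seen as 1 read each. Those 13 included the longest insertion of the site, 6 bp in 1:8D,10:6I, as well as -16:1I,-11:1D.

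At tlr4ba-sg2 the leading allele was -1:1I, with 17051 reads in fish 1, 1 read in fish 2, 0 reads in fish 3 and 1217 reads in fish 4. In fish 1 these were 24.3% of classified reads (interval 24.01 to 24.65), and in fish 4 they were 0.199% (interval 0.188 to 0.210). As a share of indel reads they were 35.2% in fish 1 and 27.0% in fish 4. The 0 reads of fish 3 allow up to 0.00063%. The deletion with the same start, -1:1D, had 68, 10, 0 and 1 reads in fish 1 to 4. Single 1-bp insertions outnumbered single 1-bp deletions in fish 1 (17131 against 81 reads) and fish 4 (1241 against 199 reads) of this site, and in no other of the 20 samples.

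The neighbouring insertion 1:1I at tlr4ba-sg2 was 1 of the 2 alleles read in all 4 fish, with 62, 1, 2 and 13 reads in fish 1 to 4. The allele -2:1I had 12 reads in fish 1 and 1 in fish 4. Both were highest in the fish where -1:1I was highest. Fish 2 had only 2 insertion-bearing reads, 1 of -1:1I and 1 of 1:1I, at the lowest depth of the series.

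At acaa2-sg1 the leading allele was 1:1I, with 0, 195, 4093 and 321 reads in fish 1 to 4. Of the classified reads it took 0.171% in fish 2 (0.148 to 0.196), 1.84% in fish 3 (1.79 to 1.90) and 0.131% in fish 4 (0.117 to 0.146), with intervals in brackets. The 0 reads of fish 1 allow up to 0.0015%. The deletion with the same start, 1:1D, had 0, 246, 72131 and 700 reads. Both alleles were thus absent in the reads of fish 1 and highest in fish 3, and the deletion exceeded the insertion in each of the other 3 fish.

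Other 1-bp insertions of acaa2-sg1 were also highest in fish 3. The allele -2:1I had 268 reads there and 13 in fish 4, -1:1I had 52 and 5, and -6:1I had 10 and 1, and none had a read in fish 1 or 2. At -2 the insertion exceeded the deletion -2:1D in fish 3, with 268 against 45 reads, while at -1 it was far below -1:1D, with 52 against 7575 reads.

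The allele 5:1I at acaa2-sg1 had another pattern, with 32, 1, 31 and 42 reads in fish 1 to 4. It was the second allele read in all 4 fish of a guide, and it made up 32 of the 33 insertion-bearing reads of fish 1. Against the reads without an indel it was 0.016%, 0.0050%, 0.023% and 0.030% in fish 1 to 4. The deletion with the same start, 5:1D, was 0.042%, 0.035%, 0.031% and 0.031% of those reads. Fish 1 had an indel in 161 of its 205913 classified reads, so this insertion was also read in a tumour nearly without indels. Without unedited tissue its level outside edited tumours was not measured.

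At acaa2-sg2 there were 2 main insertions, each in 1 fish. The allele 1:1I had 930 reads in fish 3 (0.128%, interval 0.120 to 0.136) and 2 in fish 4, and -2:1I had 706 reads in fish 4 (0.136%, interval 0.126 to 0.146) and 4 in fish 3. Neither had a read in fish 1 or 2. Fish 2 had 260362 indel reads and not a single pure insertion, where 3 reads would be 0.0010% of its classified reads. Its deletion -2:1D had 259859 reads, and the 9 insertion-bearing alleles were joined ones of 1 read each.

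At tlr4ba-sg1 the insertions lay where the deletions of that site lay, away from position 0. The allele -15:1I had 0 reads in fish 3 and 965 in fish 4 (0.213%, interval 0.200 to 0.227), and -14:1I had 240 reads in fish 3 (0.063%, interval 0.055 to 0.071) and 1 in fish 4. The allele -13:1I had 4 reads in fish 3. The 2 fish thus differed in the position of the insertion, while both carried the deletion -14:1D as their main indel, with 139764 and 280632 reads. Of the insertion-bearing reads of this site, 0% in fish 3 and 0% in fish 4 had an insertion at positions -3 to 3, which allows up to 1.45% and 0.391% by the upper interval bound.

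At the other sites, samples with over 100 insertion-bearing reads had most of them near position 0, except tlr4ba-sg2 fish 3. The share of insertion-bearing reads with an insertion at positions -3 to 3 was 99.5%, 97.8% and 71.5% in fish 2, 3 and 4 of acaa2-sg1, and 99.2% and 96.8% in fish 3 and 4 of acaa2-sg2. It was 99.98% in fish 1 of tlr4ba-sg2 (17203 of 17207 reads), 98.5% in fish 4 of tlr4ba-sg2 and 99.96% in fish 2 of tlr4bb-sg2 (33125 of 33139 reads). It was 0% of 33 reads in acaa2-sg1 fish 1, 21.3% of 225 reads in tlr4ba-sg2 fish 3, and 15.4% and 36.4% at tlr4bb-sg1. Of samples with few insertion-bearing reads at the same guides, acaa2-sg2 had 0% of 6 reads in fish 1 and 22.2% of 9 in fish 2. The guide tlr4bb-sg2 had 84.6% of 26 reads in fish 1, 33.3% of 12 in fish 3 and 15.4% of 13 in fish 4, and both reads of tlr4ba-sg2 fish 2 lay within the window. Insertions were labelled from -21 to 11 over all sites.

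Some labels of pure insertions were found at more than 1 site. Of 33 such labels, 17 were at 1 site, 10 at 2, 3 at 3 and 3 at 4. Those at 4 sites were -2:1I, 1:1I and -3:1I, each at both acaa2 guides and at the second guides of tlr4ba and tlr4bb, and -1:1I was at 3 of these 4. Pooled over sites, -2:1I had 33780 reads and 1:1I had 5762, but -3:1I had only 9. Whether labels of insertions were shared more often than those of deletions was not tested. A shared label means the same position on the scale of each table and not the same sequence. Whether position 0 is the cut site of each guide is not given in the sources used here, and the main indel of tlr4ba-sg1 was -14:1D. The leading position differed between sites and between fish. By pooled reads, 87.0% of insertion events were at position 1 for acaa2-sg1, 97.8% at -1 for tlr4ba-sg2 and 98.8% at -2 for tlr4bb-sg2. At acaa2-sg2, 54.6% were at 1 and 42.0% at -2. Single fish held most of these pooled reads. Fish 3 held 4099 of the 4622 reads at 1 of acaa2-sg1. Fish 1 held 17053 of the 18275 at -1 of tlr4ba-sg2, and fish 2 held 32781 of the 32784 at -2 of tlr4bb-sg2. Position 1 also led in acaa2-sg1 fish 2 (197 of 204 reads) and fish 4 (326 of 505), but in its fish 1 position 5 led with 32 reads. Position -1 also led in tlr4ba-sg2 fish 4 (1219 of 1255 reads). In tlr4ba-sg2 fish 3 the leading position was -10, with 137 reads against 2 at -1.

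Joined alleles took a small part of insertion-bearing reads where pure insertions were abundant. Their share was 3.92% in fish 2, 2.02% in fish 3 and 22.0% in fish 4 of acaa2-sg1 (the last with an interval of 18.6 to 25.8), and 0 of 33 reads in fish 1, which allows up to 10.4% by the upper interval bound. At acaa2-sg2 it was 1.26% in fish 3 and 3.37% in fish 4, against 5 of only 6 reads in fish 1 and 9 of 9 in fish 2. At tlr4ba-sg1 it was 5.73% in fish 3 and 1.33% in fish 4.

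At tlr4ba-sg2 the joined share was 0.442% in fish 1, 93.8% in fish 3 (211 of 225 reads, interval 89.8 to 96.3) and 1.04% in fish 4. At tlr4bb-sg2 it was 23.1%, 0.652%, 58.3% and 92.3% in fish 1 to 4, where fish 1, 3 and 4 had only 26, 12 and 13 insertion-bearing reads. At tlr4bb-sg1 it was 76.9% of 13 reads and 100% of 11 reads. Fish 3 of tlr4ba-sg2 was the only sample with over 100 insertion-bearing reads in which joined alleles prevailed.

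With samples of under 10 insertion-bearing reads left out, the joined share differed by 4.66 points between the acaa2 guides (exact permutation p = 0.800), -28.2 points between the tlr4ba guides (exact permutation p = 1) and 44.9 points between the tlr4bb guides (exact permutation p = 0.267). It differed by -11.8 points between the second guides (exact permutation p = 0.857) and by -84.9 points between the first guides (exact permutation p = 0.333). None of these 5 could pass 0.05, since the numbers of samples with enough reads put the smallest p at 0.133, 0.200, 0.133, 0.057 and 0.333 in the same order. Single samples turned several of the differences. The acaa2 difference was -0.340 points without acaa2-sg1 fish 4, and the tlr4ba difference was 2.79 points without tlr4ba-sg2 fish 3. The second-guide difference was 3.81 and 3.52 points without tlr4ba-sg2 fish 1 or 4 and 4.40 points without tlr4bb-sg2 fish 4. The first-guide difference rests on the 13 and 11 reads of tlr4bb-sg1, both above the 2 tlr4ba-sg1 samples.

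The leading joined alleles of tlr4ba-sg2 and tlr4bb-sg2 were each read in 1 fish. At tlr4bb-sg2, -2:1D,2:2I had 177 reads in fish 2 (0.177%, interval 0.153 to 0.205) and -2:1D,3:2I had 16, and both had 0 reads in fish 1, 3 and 4. At tlr4ba-sg2, -10:4I,-8:8D had 135 reads in fish 3 (0.028%, interval 0.024 to 0.033) and 0 in the other 3 fish. The allele -4:4D,3:8I, with the longest insertion of that site, had 71 reads in fish 1 (0.101%, interval 0.080 to 0.128) and 0 in the others. At the other 4 guides no joined allele had more than 12 reads.

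The net lengths of joined alleles were set against the leading alleles of the same fish, meaning alleles of a single event at 1% or more of its classified reads. Of the 852 joined reads, 618, or 72.5%, had the net length of a leading allele of their own fish. Another 12 had a net length that led only in another fish of the guide, which leaves out any length shared with the own fish. The alleles -2:1D,2:2I (177 reads) and -10:4I,-8:8D (135 reads) made up a large part of the 618. A fish had up to 4 leading alleles, and how often lengths would match by chance was not tested. In tlr4bb-sg2 fish 2, 207 of 216 joined reads had a net gain of 1 bp, as in its leading -2:1I. In tlr4ba-sg2 fish 3, 200 of 211 joined reads had a net loss of 4 bp, as in its leading -4:4D. In acaa2-sg1 fish 4, 42 joined reads had a net loss of 12 bp and 29 a net loss of 10 bp, as in its leading -6:12D and -11:10D.

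The most abundant joined allele of acaa2-sg1, -8:1I,-7:13D, was among the first of these, with 12 reads in fish 4 and none elsewhere. In acaa2-sg2 fish 4, where -2:1D led, 21 of 25 joined reads had a net loss of 1 bp, 10 of them from -4:1I,-3:2D. Fish 1 of tlr4ba-sg2 differed, since 2 of its 76 joined reads had such a net length and 73 held a leading allele as 1 of their events, 71 of these as -4:4D,3:8I. Whether such alleles were separate repair products or other alignments of reads of the leading allele was not tested.

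Joined alleles with a net change of 0 made up most joined reads in 6 samples. At tlr4bb-sg1, 21 of 24 insertion-bearing reads and 12 of 15 alleles inserted as many bases as they deleted. The most abundant there were -3:5I,2:5D with 2 and 3 reads and 4:1I,9:1D with 3 and 2 reads in fish 3 and 4, and the longest insertion was 7 bp in 7:7I,9:7D with 2 reads in fish 4. In acaa2-sg2 fish 1 all 5 joined reads, 2 of them from -14:1I,-6:1D, had a net change of 0, and in tlr4ba-sg2 fish 4 it was 12 of 13. These 4 samples had no allele of a single indel at 1% or more of their classified reads. The other 2 samples had such an allele, with a net change of 0 in 8 of 15 joined reads of tlr4ba-sg1 fish 3 and in 5 of 7 of tlr4bb-sg2 fish 3.

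The longest insertions were rare. At acaa2-sg1 the longest was 20 bp in -19:20I,-10:2D, with 1 read in fish 4, which also had 2 reads of a pure 18-bp insertion at -19. At acaa2-sg2 it was 15 bp in -12:15I,-6:1D,-2:8I, with 1 read in fish 3, and at tlr4ba-sg1 7 bp in -21:7I,-15:6D, with 1 read in fish 4. Whether single reads of this kind came from the tumour genome was not tested.

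By length, a pure 1-bp insertion always shifts the frame. High shares of shifted reads therefore follow from the definition where such insertions prevailed. The share with a net change that is not a multiple of 3 was 99.4% in acaa2-sg1 fish 3, 99.4% and 99.6% in acaa2-sg2 fish 3 and 4, 96.9% and 99.8% in tlr4ba-sg1 fish 3 and 4, and 99.99% and 99.98% in tlr4ba-sg2 fish 1 and tlr4bb-sg2 fish 2. It was 85.7% in acaa2-sg1 fish 4 (interval 82.4 to 88.5), which had 42 joined reads with a net loss of 12 bp and 24 with a net change of 0. In tlr4ba-sg2 fish 3, where joined alleles prevailed, it was still 95.6% (interval 92.0 to 97.6). At tlr4bb-sg1 it was 23.1% of 13 reads and 0% of 11 reads. Exon positions of the sites were not analysed here, so the frame refers to length alone.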

How the data were processed

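The values were counts of amplicon reads per allele, deposited in 6 tables, 1 for each guide, whose columns are fish (per the file headers). The submitters' processing notes name R 4.0.5 and the genome build GRCz10. Which aligner, caller or filter was used is not given in the sources used here. Columns were matched to samples through the table's guide and the fish in the header, and 0 columns were left over.

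Events were read from the allele labels with Python 3.11.15, pandas 2.3.3 and scipy 1.17.1. Insertion-bearing reads were set against classified reads and against indel reads, and reads of alleles that also held a deletion against insertion-bearing reads. A sample needed at least 10 reads in the denominator. Means of samples were compared by exact permutation, two-sided, at an unadjusted p of 0.05, and Benjamini-Hochberg values were taken over the 15 comparisons. The sample, meaning 1 fish at 1 guide, was the unit, and guides cut different sites, so no count model across alleles was used. The code was tested on simulated data.

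Alleles were named by a rule: per guide the 5 that were highest in mean share over fish, the most abundant of each sample, the most abundant joined allele and the one with the longest insertion. The 18-bp insertion, -2:1D, -1:1D, 1:1D, 5:1D and the leading deletions were added after their values were seen, as was the comparison of net lengths. The members and measures were chosen with earlier results of these data known. From the sample titles, equal fish numbers within a knockout were taken for 1 animal, though no label says so, and a replicate block on fish number was tried among the alternatives. Alleles of different guides cannot be matched, so no correlation of same-numbered samples was computed.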

Additional observations from a re-analysis of the deposited data

Results flagged for a closer look

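Among the 4 fish of a guide, a sample was marked where its gap to the nearest other fish exceeded Dixon's critical share of the range of the 4. Of 36 sets of 4 fish looked at, 27 had such a sample. Chance marks about 1 in 20 groups of normal values, and whether that rate holds for read shares as uneven as these was not tested. It does not hold for the alleles, many of which were named for being abundant in 1 fish. An allele read in only 1 fish, as 10 of the 27 were, is marked by construction. The share of classified reads on insertion-bearing alleles stood apart in acaa2-sg1 fish 3 (2.06%), tlr4ba-sg2 fish 1 (24.6%) and tlr4bb-sg2 fish 2 (33.1%). The share of indel reads stood apart in tlr4bb-sg2 fish 2 (41.6%).

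The other 23 were single alleles, as percent of classified reads. In acaa2-sg1 fish 3 these were 1:1I (1.84%), -2:1I (0.121%), -1:1I (0.023%) and -6:1I (0.0045%). In acaa2-sg1 fish 4 they were -8:1I,-7:13D (0.0049%) and -19:20I,-10:2D (0.00041%). In acaa2-sg2 fish 4 they were -2:1I (0.136%), -4:1I,-3:2D (0.0019%) and -4:1I (0.00077%), and in its fish 3 they were 1:1I (0.128%) and -12:15I,-6:1D,-2:8I (0.00014%). In tlr4ba-sg2 fish 1 they were -1:1I (24.3%), -4:4D,3:8I (0.101%), 1:1I (0.088%) and -2:1I (0.017%), and in its fish 3 -10:4I,-8:8D (0.028%). In tlr4bb-sg2 fish 2 they were -2:1I (32.7%), -2:1D,2:2I (0.177%), 1:1I (0.126%), -2:1D,3:2I (0.016%) and 2:1I (0.013%). In tlr4bb-sg2 fish 4 they were -16:1I,-11:1D and 1:8D,10:6I (0.00033% each, 1 read).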

How the results depend on the processing

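Under 238 alternative values of the 15 comparisons, 27 changed sign. Of the 238, 218 had a test, with a lowest unadjusted p of 0.057 (exact permutation), and the 20 values within fish 1 and 2 or fish 3 and 4 had none. The causes were not tested beyond what each setting leaves out. For classified reads, the tlr4ba difference was 0.016 points with the replicate block, which left fish 3 and 4, and the tlr4bb difference 0.0015 points. The second-guide difference was 0.122 points in fish 3 and 4 and 1.76 as log2 odds, and the first-guide difference was -0.0014 points with only insertions at positions -3 to 3. For indel reads, the tlr4bb difference was -3.20 points without alleles of 1 read, -8.93 points with a net gain of bases only, -8.86 points without joined alleles and -7.22 points with only positions -3 to 3, and the second-guide difference was -2.98 points in fish 1 and 2. For the joined share, the acaa2 difference was -40.0 points with no read minimum, and the second-guide difference was 31.9 points without alleles of 1 read, 26.6 with only positions -3 to 3 and 31.1 with at least 100 reads.

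With each sample left out in turn, the differences in classified reads ran from -8.13 to 0.056 points for tlr4ba and -8.19 to 6.19 for the second guides. Those in indel reads ran from -1.46 to 12.4 points for tlr4bb and -0.910 to 16.0 for the second guides, and those in the joined share from -0.340 to 6.99 points for acaa2, -43.9 to 2.79 for tlr4ba and -42.9 to 4.40 for the second guides. For classified and indel reads the replicate block left the mean difference of the acaa2, second and first guides as it was, which follows from its construction where both guides were read in the same fish. Its smallest p is 0.125 with 4 pairs, 0.250 with 3 and 0.5 with 2, so no blocked comparison could pass 0.05 and the block says nothing on stability. Without alleles under 0.1% of reads no indel read was left at tlr4bb-sg1, so its shares of indel reads and of joined reads could not be given. The joined share of tlr4bb-sg1 had no value either with a net gain only, with at least 100 reads or without alleles of 1 read, and that of both first guides none with only positions -3 to 3. Other and substitution-only reads do not enter the shares of indel or insertion-bearing reads. With samples under 1000 indel reads left out, an alternative added after the data were seen, the acaa2 difference in indel reads was 1.79 points and tlr4bb-sg1 had no sample. Of the 38 named alleles, the highest share of 1 moved beyond its interval, when substitution-only reads were left out. With leading alleles taken at 0.1% rather than 1%, an alternative added after the data were seen, 74.2% of joined reads had the net length of a leading allele. Rare alleles rested on few reads, since 260 of 368 allele counts above 0 were 1 read.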
